A study of Mus musculus with 6 samples.

Results

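The cytosolic HSP70 and HSP90 chaperone machinery was followed here through 10 genes, Stip1, Hspa8, Hsp90aa1, Hsp90ab1, Dnaja1, Dnajb1, Hsph1, Hspa4l, Chordc1 and Hspa4, out of 52143 gene identifiers measured. The members were matched by gene symbol on the main chromosomes, then by Ensembl identifier to gene and transcript counts. The set was chosen by the measured fall of Stip1 and Hspa8 in the libraries labelled Jun shRNA, so the differences of the members between groups are a description and carry no test.

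HSP70 binds exposed hydrophobic stretches of unfolded proteins in a cycle driven by ATP. J-domain proteins bring clients and start ATP hydrolysis, and nucleotide exchange factors of the HSP110 family release ADP so that the client can leave. The adaptor HOP, encoded by Stip1, passes clients from HSP70 to HSP90, which completes the folding of kinases, receptors and other clients. In photoreceptors, HSP90 works with the co-chaperone AIPL1 in the assembly of rod phosphodiesterase.

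RNA was sequenced from mouse rods on postnatal day 10, with 3 libraries labelled Jun shRNA and 3 control libraries. In vivo electroporation on postnatal day 0 delivered 0.4 µl holding a plasmid at 2.5 µg/µl, with an shRNA against Jun in the first group and a scrambled sequence in the control group. Both groups also received an EGFP vector under the Nrl promoter at 1.5 µg/µl, and EGFP-positive cells were sorted by flow, so the sort depends on a promoter active in rods. The genotype field of the labels repeats the plasmid and gives no mouse strain, allele or sex. The labels do not tie libraries to animals, so the spread between libraries may in part be technical, and fewer cells of a type cannot be told apart from less RNA per cell.

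Jun, the targeted gene, stood at 1.84, 17.6 and 19.3 CPM (counts scaled to library size by TMM) in the libraries labelled Jun shRNA, against 6.47, 5.85 and 7.16 CPM in controls. It was lower in 1 of the 3 libraries so labelled, and each direction given here contrasts libraries by label. Library totals were 13211279 to 13998395 estimated counts in the libraries labelled Jun shRNA and 32150086 to 105800770 in controls, so depth and group cannot be told apart. The summed level of 14 rod markers was 29771 to 46867 CPM in the libraries labelled Jun shRNA and 125482 to 134768 CPM in controls, with 10 of the 14 past the threshold as lower. Of the 14, 12 had a negative log2 fold change and 2, Gngt1 and Cnga1, a positive one, with overlapping groups. Gngt1 stood at 31308, 18331 and 33263 CPM in the libraries labelled Jun shRNA, against 20419, 6894 and 13854 CPM in controls. It was the largest part of the sum in each library labelled Jun shRNA. Summed microglia and macrophage markers (18 genes, 15 tested, 5 past the threshold as lower, beside 1.35% of all tested genes) were 16.5 to 52.1 CPM against 1037 to 1397 CPM in controls. Laptm5 of that list had 0 counts in every library labelled Jun shRNA, but also in 2 of the 3 controls. Summed vascular and blood markers (17 genes, 9 tested, 3 past the threshold as lower, beside 1.35%) were 23.6 to 71.0 CPM against 238 to 391 CPM in controls. The haemoglobin gene Hba-a1 had 0 counts in every library labelled Jun shRNA, against 1808, 4347 and 3426 in controls. The endothelial genes of the list were mixed. Esam was at 0 in every library labelled Jun shRNA and in 1 control. Kdr stood at 18.1, 56.5 and 62.0 CPM in the libraries labelled Jun shRNA against 9.74, 26.8 and 14.5 CPM in controls. Vwf was higher in each library labelled Jun shRNA than in any control, but near the floor, at 1.84, 0.846 and 0.720 CPM against 0.466, 0.466 and 0.324 CPM. Summed Müller glia markers (19 genes, 17 tested) were 513 to 793 CPM against 2775 to 2908 CPM in controls. Past the threshold were 0, beside 1.35% of all tested genes as lower and 0.320% as higher. Of the 17 tested, 5 had an unadjusted edgeR p under 0.05, beside 16.8% of all tested genes. The part of these markers and of depth in the chaperone results was not tested.

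Promoter windows from RefSeq (GRCm38.p6), running from 250 bases before a start site to 50 after it, were matched for 7 members, Stip1, Dnaja1, Dnajb1, Hsph1, Hspa4l, Chordc1 and Hspa4, giving 11 windows. Heat shock genes are classically driven by HSF1 through inverted GAA units, and AP-1 dimers containing Jun bind a different short site, so both were searched. The 4 windows shown are those of Stip1, the member with the lowest mean level in the libraries labelled Jun shRNA, and of the members with a heat shock element match. Capitals mark heat shock element matches, and in Stip1 the TATAAA box.
Stip1, chr19:7039977-7040276, minus strand: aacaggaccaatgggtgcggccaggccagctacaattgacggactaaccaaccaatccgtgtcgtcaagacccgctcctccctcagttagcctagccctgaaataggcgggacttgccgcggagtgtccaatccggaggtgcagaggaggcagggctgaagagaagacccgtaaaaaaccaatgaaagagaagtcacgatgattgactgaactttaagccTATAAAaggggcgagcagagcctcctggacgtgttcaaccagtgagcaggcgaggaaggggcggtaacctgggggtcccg
Chordc1, chr9:18292017-18292316, plus strand: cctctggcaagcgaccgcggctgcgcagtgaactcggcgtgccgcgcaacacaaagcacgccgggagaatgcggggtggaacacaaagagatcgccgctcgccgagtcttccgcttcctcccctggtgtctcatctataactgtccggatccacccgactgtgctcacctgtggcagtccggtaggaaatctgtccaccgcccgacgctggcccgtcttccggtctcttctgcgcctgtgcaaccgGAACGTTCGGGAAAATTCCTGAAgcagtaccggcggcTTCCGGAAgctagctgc
Hsph1, chr5:149636287-149636586, minus strand: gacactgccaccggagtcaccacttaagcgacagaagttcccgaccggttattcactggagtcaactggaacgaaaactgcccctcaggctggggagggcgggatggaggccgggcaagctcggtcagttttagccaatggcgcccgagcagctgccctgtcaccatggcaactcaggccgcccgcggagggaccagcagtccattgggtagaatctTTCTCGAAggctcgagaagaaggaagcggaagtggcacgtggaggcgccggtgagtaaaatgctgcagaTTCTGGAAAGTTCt
Dnaja1, chr4:40722218-40722517, plus strand: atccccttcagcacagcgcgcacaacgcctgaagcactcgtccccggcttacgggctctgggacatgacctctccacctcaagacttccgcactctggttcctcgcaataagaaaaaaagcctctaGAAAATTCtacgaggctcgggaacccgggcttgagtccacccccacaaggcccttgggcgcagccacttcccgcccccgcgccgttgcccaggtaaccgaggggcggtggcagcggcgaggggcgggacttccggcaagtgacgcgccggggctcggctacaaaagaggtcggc

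A heat shock element of 3 units (GAANNTTCNNGAA or its complement, both strands) was found in 2 of the 7 members, Hsph1 and Chordc1. It lay in 3 of the 11 windows, against 0.603% of 32851 RefSeq windows, and the Hsph1 windows overlap each other. Chordc1 held 3 overlapping matches, which began 4 bases before and 1 and 6 bases after the start site. In Hsph1 the match began 36 bases after the start site in the window shown. The shorter form with 2 units facing in (GAANNTTC) was present in Dnaja1, Hsph1 and Chordc1, in 4 of the 11 windows, with 7.86% of all windows holding it. The form facing out (TTCNNGAA) was present in Hsph1 and Chordc1, in 3 of the 11 windows, with 8.52% of all windows holding it. These shorter forms overlap the longer one where both occur.

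The Stip1 window held no heat shock element. It had a TATAAA box, present in 13.6% of all windows, 30 bases before its start site, and 4 CCAAT boxes, a motif found in 37.4% of all windows. Dnaja1, Dnajb1 and Hsph1 also held CCAAT. The AP-1 site TGANTCA and the related CRE, TGACGTCA, were in 0 of the 11 windows of the 7 members, against 7.81% and 1.79% of all windows. With shares this low and only 11 windows, nothing is read from a count of 0. A match is a string of letters and no measured binding, and its absence covers these windows only.

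The chaperones themselves differed in size of change. Hspa8 encodes HSC70, the constitutive cytosolic HSP70 (ENSMUSG00000015656, chr9:40800984-40810087, plus strand), which also uncoats clathrin vesicles. It stood at 141, 84.0 and 197 CPM in the libraries labelled Jun shRNA, against 1803, 1997 and 1374 CPM in controls. Every library labelled Jun shRNA was below every control library, and the groups were far apart relative to their spread. The group means were 141 ± 56.5 and 1724 ± 319 CPM (SD, n = 3 each), a log2 fold change of -3.62 (SE 0.41), or 12.3-fold lower. Hspa8 has processed pseudogenes in the mouse genome, so shared reads may have been divided between copies.

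The inducible HSP90 gene Hsp90aa1 (ENSMUSG00000021270, chr12:110690605-110702728, minus strand) stood at 2885, 1648 and 2535 CPM in the libraries labelled Jun shRNA, against 3275, 3295 and 4097 CPM in controls. In CPM the groups did not overlap, but the gap between 2885 and 3275 CPM was small beside the range of each group. The log2 fold change of Hsp90aa1 was -0.59 (SE 0.26), or -0.13 when libraries were scaled by their totals. Hsp90ab1, the constitutive HSP90 gene (ENSMUSG00000023944, chr17:45567775-45573271, minus strand), stood at 94.5, 114 and 3.21 CPM in the libraries labelled Jun shRNA, against 171, 467 and 209 CPM in controls. Replicate 3 was far below the other two libraries of its group, and the log2 fold change of -2.00 had an SE of 1.05.

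Stip1 (ENSMUSG00000024966, chr19:7020696-7040026, minus strand), the HOP adaptor between HSP70 and HSP90, was close to absent in the libraries labelled Jun shRNA. It had 1.02, 1.64 and 1.64 CPM there, from 15, 29 and 25 estimated counts. In controls it had 319, 346 and 221 CPM, from 11614, 31183 and 6141 estimated counts. The replicates of each group lay close together, with the highest library 1.60 times the lowest in the libraries labelled Jun shRNA and 1.57 times in controls. The means were 1.43 ± 0.355 and 295 ± 65.8 CPM (SD, n = 3 each) and the log2 fold change was -7.68 (SE 0.73), 206-fold lower.

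Of the J-domain members, Dnaja1 (ENSMUSG00000028410, chr4:40722150-40737149, plus strand), a farnesylated partner of HSC70, stood at 373, 249 and 517 CPM in the libraries labelled Jun shRNA, against 868, 552 and 371 CPM in controls. The groups overlapped, and the log2 fold change was -0.65 (SE 0.45). Dnajb1 (ENSMUSG00000005483, chr8:83608193-83612653, plus strand), which encodes the heat-inducible HSP40, stood at 6.67, 0.395 and 35.6 CPM in the libraries labelled Jun shRNA, against 15.6, 68.9 and 18.2 CPM in controls. Its highest library labelled Jun shRNA was above 2 of the 3 controls, and the log2 fold change of -1.27 (SE 1.58) was smaller than its error. It was -3.31 without replicate 3 of the libraries labelled Jun shRNA and -0.27 without control replicate 2.

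The 3 HSP110 genes, whose products exchange nucleotide on HSP70, had fold changes of different sign. Hsph1 (ENSMUSG00000029657, chr5:149614287-149636376, minus strand) stood at 116, 40.9 and 0.720 CPM in the libraries labelled Jun shRNA, against 112, 191 and 139 CPM in controls. The libraries labelled Jun shRNA differed among themselves by 161 times, from a level inside the control range to near 0, and the log2 fold change was -1.48 (SE 1.26), or -2.83 without replicate 1 and -0.93 without replicate 3 of that group. Hspa4l (ENSMUSG00000025757, chr3:40744495-40796103, plus strand) stood at 287, 219 and 215 CPM in the libraries labelled Jun shRNA, against 107, 227 and 44.8 CPM in controls. Control replicate 2 lay inside the range of the other group, and the log2 fold change was 0.93 (SE 0.65), or 1.68 without that control. A copy of Hspa4l on a patch sequence (ENSMUSG00000115951) carried the same values in all 6 libraries, so reads may be split between the copies and the level is uncertain.

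Hspa4 (ENSMUSG00000020361, chr11:53259814-53300457, minus strand) was the only member higher in every library labelled Jun shRNA than in every control library. It stood at 64.9, 14.4 and 68.6 CPM in the libraries labelled Jun shRNA, against 6.88, 0.655 and 0.0720 CPM in controls, the last 3 from 251, 59 and 2 estimated counts. The control libraries differed among themselves by 95.6 times, and the log2 fold change was 4.28 (SE 1.80), with values of 3.76 to 7.0 when single libraries were left out, the highest without control replicate 1. Chordc1 (ENSMUSG00000001774, chr9:18292125-18317442, plus strand) encodes the HSP90 co-chaperone morgana, a zinc-binding protein with CHORD domains. It stood at 44.9, 65.4 and 95.8 CPM in the libraries labelled Jun shRNA, against 129, 129 and 55.3 CPM in controls. The groups overlapped, with a log2 fold change of -0.60 (SE 0.73).

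**Figure D1:**
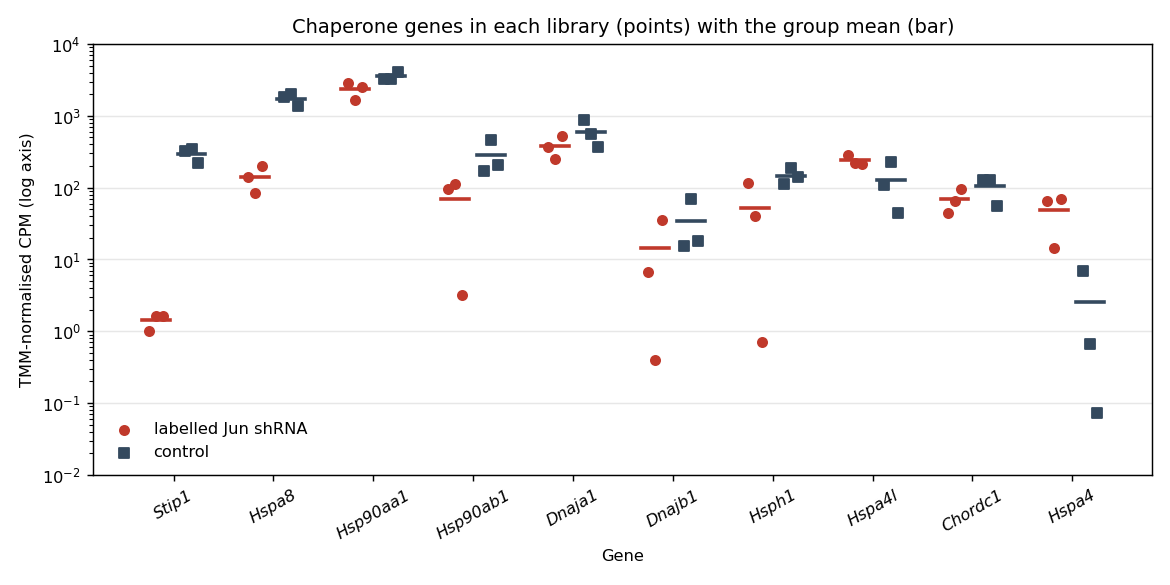
Level of each of the 10 chaperone genes (x axis) in TMM-normalised CPM on a log axis, with a point per library, circles for the libraries labelled Jun shRNA, squares for controls, and a bar at each group mean. Stip1 and Hspa8 show the widest gaps between groups relative to their spread, and Hsp90ab1, Dnajb1 and Hsph1 show single libraries far below the rest of their group.

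All 10 members passed the filter on low counts. In edgeR's quasi-likelihood test over 12815 genes, 2 members (Stip1 and Hspa8) were past an adjusted p of 0.05 as lower, where 1.35% of all tested genes were, and 0 as higher, where 0.320% were. At an unadjusted p under 0.05 there were 4 members, where 16.8% of all tested genes were. In CPM, every library labelled Jun shRNA was below every control library for 4 members, against 15.7% of all tested genes, and above for 1 member, against 12.6%. The members' median log2 fold change was -0.96 and that of all tested genes -0.12. Since this contrast chose the members, nothing is read from these shares. The members' CPM summed to 4013, 2436 and 3670 in the libraries labelled Jun shRNA, against 6807, 7273 and 6529 in controls.

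Spread within a group differed by member. The standard deviation of log2(CPM + 1) over replicates had a median over the 10 members of 0.576 in the libraries labelled Jun shRNA and 0.655 in controls. For 5736 tested genes in the same range of mean CPM, the medians were 1.02 in the libraries labelled Jun shRNA and 0.742 in controls. The ratio of the highest to the lowest library was 35.4 for Hsp90ab1 and 90.1 for Dnajb1 in the libraries labelled Jun shRNA, against 2.73 and 4.41 in controls. Hspa4l ran the other way, with 1.33 in the libraries labelled Jun shRNA and 5.06 in controls.

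Levels of different genes can be compared only per length, so transcript counts were divided by annotated transcript length and scaled within each library to TPM. No TMM factor enters the TPM. These factors were 1.10 to 1.35 in the libraries labelled Jun shRNA and 0.796 to 0.873 in controls. CPM and TPM therefore differ in library scaling as well as in the counts used, and the part of each in their disagreements was not tested. Hsp90aa1 was the most abundant member per length in every control library, at 1827 ± 242 TPM in the libraries labelled Jun shRNA and 2138 ± 155 TPM in controls (SD, n = 3 each). Unlike in CPM, its groups overlapped, with 2095, 1624 and 1761 TPM in the libraries labelled Jun shRNA against 2004, 2102 and 2307 TPM in controls. Hsp90aa1 made up 73.5% of the members' summed TPM in the libraries labelled Jun shRNA and 50.3% in controls. Hspa8 was second in controls, with 151 ± 37.8 TPM in the libraries labelled Jun shRNA and 1346 ± 325 TPM in controls, or 6.06% and 31.0% of the members' sum. That sum includes Hspa8 and Stip1, whose fall chose the set, so nothing is read from the group difference in either share.

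Dnaja1 followed, at 274 ± 73.3 TPM in the libraries labelled Jun shRNA and 328 ± 136 TPM in controls. Stip1 came next in the control order, with 1.11 ± 0.353 TPM in the libraries labelled Jun shRNA and 175 ± 49.9 TPM in controls, and had the lowest mean of the 10 in the libraries labelled Jun shRNA, although Dnajb1 was below it in replicate 2 and Hsph1 in replicate 3. Hsp90ab1 followed Stip1, at 47.6 ± 40.7 TPM in the libraries labelled Jun shRNA and 159 ± 112 TPM in controls. Its groups, apart in CPM, overlapped in TPM, with 80.8 in replicate 2 of the libraries labelled Jun shRNA and 76.3 in control replicate 1. From Dnaja1 through Stip1, Hsp90ab1, Hsph1, Hspa4l and Chordc1 to Dnajb1, the control ranges of neighbouring genes overlapped, so their order is within the spread between libraries. Hsp90aa1, Hspa8 and the least abundant member, Hspa4, stood clear of their neighbours.

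Lower down, Hsph1 had 27.1 ± 28.1 TPM in the libraries labelled Jun shRNA and 58.3 ± 18.1 TPM in controls. Hspa4l had 89.0 ± 14.5 TPM in the libraries labelled Jun shRNA and 40.1 ± 31.6 TPM in controls. Chordc1 was near level, with 40.5 ± 14.4 TPM in the libraries labelled Jun shRNA and 38.2 ± 13.8 TPM in controls. Its TMM-scaled CPM from gene counts was lower, but its log2 fold change was -0.10 when libraries were scaled by their totals. Dnajb1 had 6.97 ± 9.03 TPM and Hspa4 19.2 ± 10.3 TPM in the libraries labelled Jun shRNA, against 15.1 ± 14.4 and 0.874 ± 1.28 TPM in controls.

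Ratios between partner genes were compared within each library. The TPM ratio of Hspa8 to its adaptor gene Stip1 was 203, 77.4 and 169 in the libraries labelled Jun shRNA, against 7.23, 7.61 and 8.52 in controls. The fall of these genes chose the set, so this ratio restates that choice and nothing is read from it. It also rests on 16.2, 31.0 and 26.5 Stip1 transcript counts in the libraries labelled Jun shRNA. Between the HSP90 genes, the ratio of Hsp90aa1 to Hsp90ab1 was 34.9, 20.1 and 822 in the libraries labelled Jun shRNA, against 26.3, 7.33 and 20.4 in controls, and the groups overlapped. The ratio of Hspa4l to Hspa4 was 4.16, 13.1 and 2.70 in the libraries labelled Jun shRNA, against 13.7, 300 and 487 in controls.

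**Figure D2:**
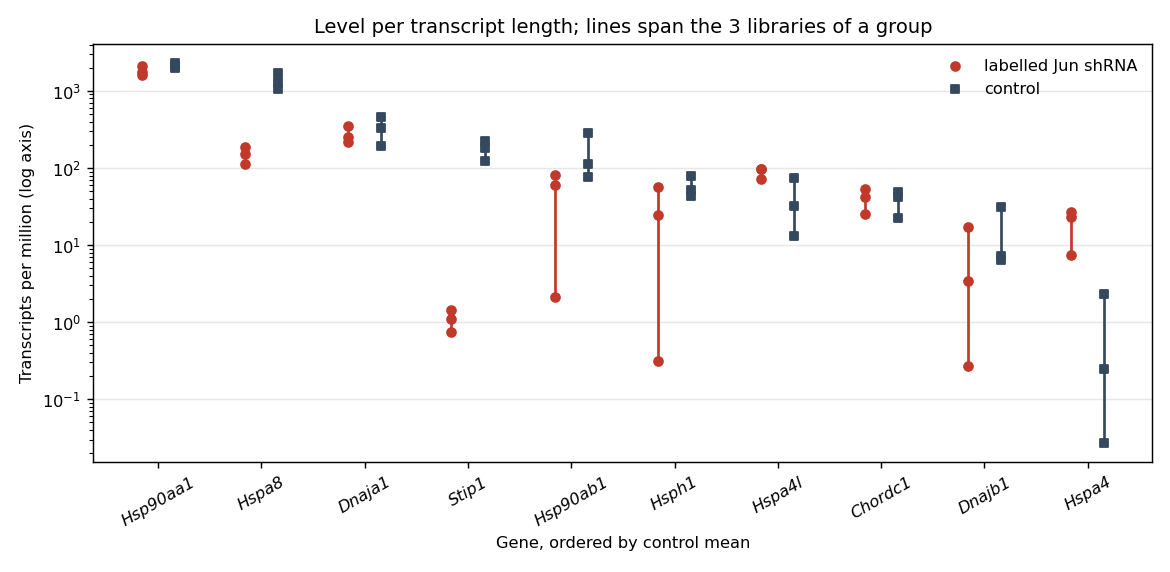
Level of each member per transcript length, in TPM on a log axis, with genes ordered by their control mean, circles for the libraries labelled Jun shRNA and squares for controls. Lines span the 3 libraries of a group, and Stip1 stands among the upper members in controls and has the lowest mean in the libraries labelled Jun shRNA, with Dnajb1 and Hsph1 each below it in 1 library.

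Transcript counts showed which isoforms carried these levels. The members have 70 annotated transcripts, of which 58 had counts and 30 were tested among 20706 transcripts. Past the threshold as lower were 2, Stip1-201 and Hspa8-202, with 0.604% of all tested transcripts called lower, and 0 were called higher, with 0.0580% of all. These 2 transcripts carry most or all counts of the genes whose fall chose the set, so the calls repeat that choice and nothing is read from them. Stip1-201, with a coding length of 1629 bases, held 100% of the gene's transcript counts in every library. Hspa8-202 held 99.4%, 99.5% and 90.1% of the Hspa8 counts in the libraries labelled Jun shRNA, against 84.2%, 82.6% and 87.1% in controls. The processed transcript Hspa8-209, which has no annotated coding sequence, made up 0%, 0% and 9.78% in the libraries labelled Jun shRNA, against 14.9%, 15.9% and 12.1% in controls.

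Dnajb1 was assigned to different first exons in the 2 groups. Dnajb1-202, whose first exon lies at chr8:83608553-83608760, took all counts in the libraries labelled Jun shRNA, with 100, 8 and 556 counts there and 0 in each control library. Dnajb1-201, with its first exon at chr8:83608193-83608542, took all counts in controls, with 0 in each library labelled Jun shRNA and 598, 6328 and 517 in controls. A count of 0 allows a share of up to 3.01%, 38.9% and 0.540% in the libraries labelled Jun shRNA and up to 0.502%, 0.0474% and 0.580% in controls, counting error only. Both transcripts share exons 2 and 3, and RefSeq likewise lists start sites at 83608175 and 83608548. The annotated coding sequence of Dnajb1-202 begins in exon 2 and is 720 bases long, against 1020 bases for Dnajb1-201, so it omits the part in exon 1, where the N-terminal J domain that contacts HSP70 begins.

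Hspa4l also differed in make-up. Its retained-intron transcript Hspa4l-202 ends in an exon of 1596 bases (chr3:40757001-40758596) that runs past the end of the 123-base coding exon at the same start. It held 1233, 1391 and 1507 counts in the libraries labelled Jun shRNA, or 37.8%, 33.0% and 71.8% of the gene, against 9, 2 and 1 counts in controls, all at or under 0.18%. The coding transcript Hspa4l-208 held 1916, 2823 and 593 counts in the libraries labelled Jun shRNA, against 3565, 11632 and 2198 in controls. Hspa4l-201, another coding form, had 0 counts in each library labelled Jun shRNA, against 1718, 8342 and 222 in controls.

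Over all protein-coding genes, retained-intron transcripts took a larger share of counts in each library labelled Jun shRNA than in any control. They held 7.99%, 9.63% and 7.84% of the counts of protein-coding genes in the libraries labelled Jun shRNA, against 2.78%, 3.56% and 3.35% in controls. The groups did not overlap, and a two-sided exact permutation test gave p = 0.1, the smallest that 3 against 3 libraries allow. Among the members, Hsp90aa1-206, a retained-intron form, held 27.7%, 10.8% and 21.0% of its gene in the libraries labelled Jun shRNA, against 3.21%, 13.2% and 19.6% in controls, and the groups overlapped. Hsp90ab1-204 reached 31.5% in replicate 2 of the libraries labelled Jun shRNA and 2.42% at most in controls.

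The remaining isoforms differed widely between libraries of the same group. The main Hsp90aa1 transcript, Hsp90aa1-202, held 44.0%, 46.4% and 56.9% in the libraries labelled Jun shRNA, against 48.7%, 61.9% and 67.3% in controls. Hsp90aa1-201 differs in its first exons and in its last exon, of 622 bases against 1045, and has the same coding length of 2199 bases. Hsp90aa1-201 held 16.8%, 38.1% and 10.1% in the libraries labelled Jun shRNA, against 43.1%, 11.0% and 1.17% in controls. Hsph1 switched between Hsph1-201, with 97.3%, 99.9% and 1.45% in the libraries labelled Jun shRNA against 76.7%, 14.5% and 8.37% in controls, and Hsph1-211, which codes for a longer protein. Dnaja1-201 held 28.6%, 59.9% and 94.6% of its gene in the libraries labelled Jun shRNA, against 88.0%, 81.5% and 79.4% in controls, and Dnaja1-210 held 40.9% in replicate 1 of the libraries labelled Jun shRNA. Chordc1-201 held 94.0% to 98.9% in the libraries labelled Jun shRNA and 84.9% to 95.0% in controls. Hspa4-201 held 93.3% or more in the libraries labelled Jun shRNA and all counts in control replicates 1 and 2.

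**Figure D3:**
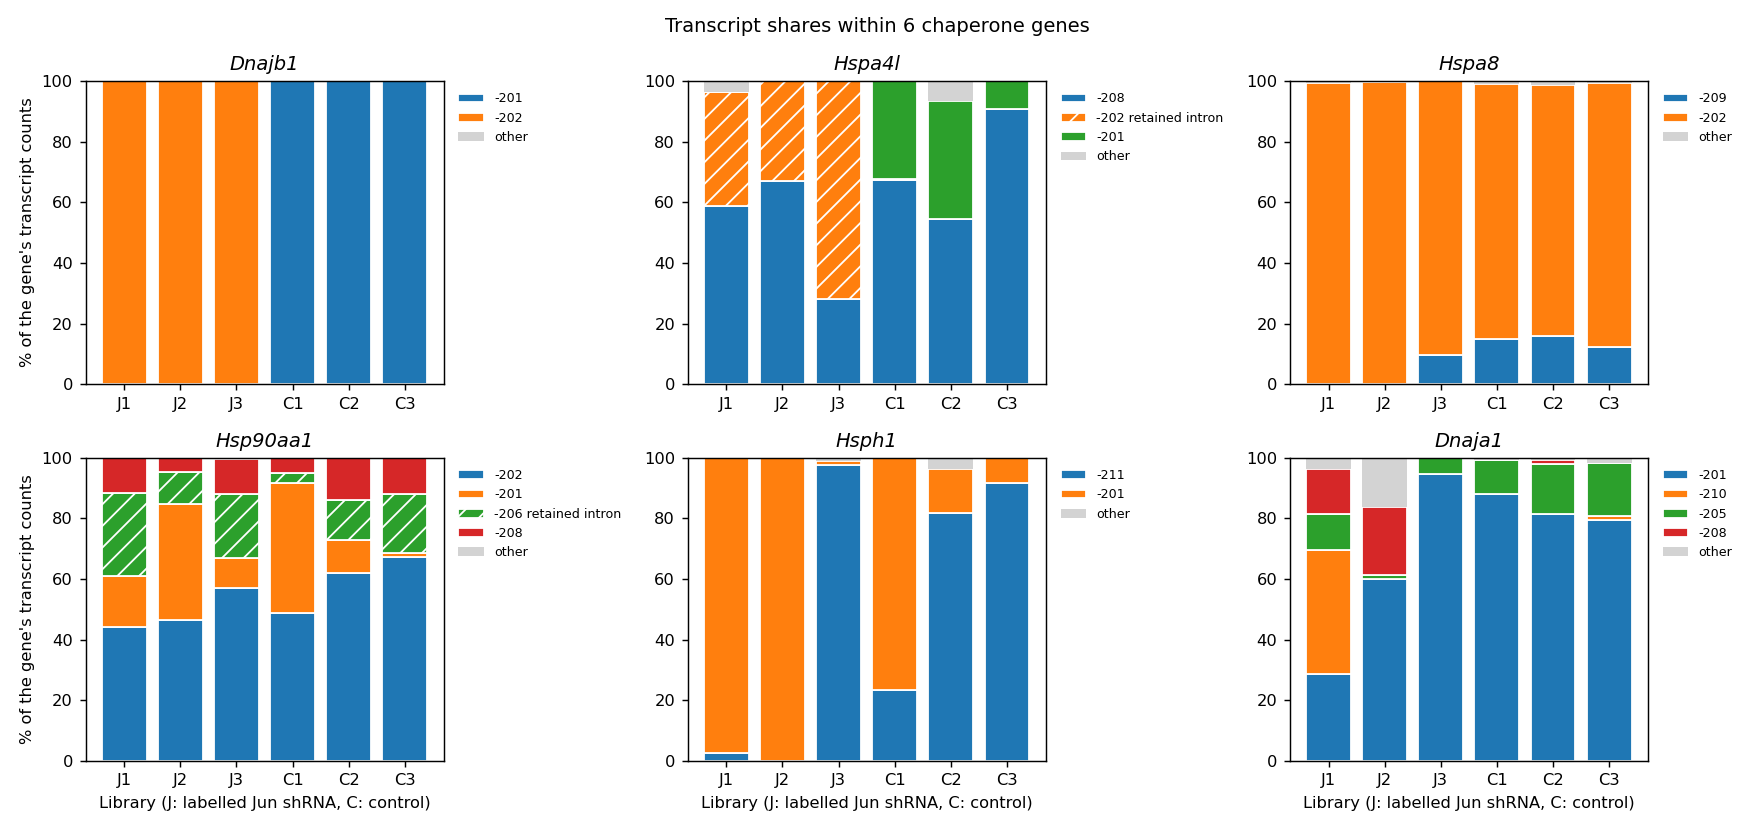
Share of each gene's transcript counts (y axis, percent) held by its named transcripts in each library (x axis), with J1 to J3 the libraries labelled Jun shRNA and C1 to C3 the controls; hatching marks retained introns. Dnajb1 is wholly Dnajb1-202 in the libraries labelled Jun shRNA and wholly Dnajb1-201 in controls, and Hspa4l-202 appears above 1% of its gene only in the libraries labelled Jun shRNA.

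Across 9 lists of related chaperones, 111 genes in all, 92 were tested. Of these, 3 passed the threshold as lower (Fkbp4, Cct7 and Hspa5), beside 1.35% of all tested genes, and 0 as higher, beside 0.320%. An unadjusted edgeR p under 0.05 was found for 19 of the 92, beside 16.8% of all tested genes. In all, 65 were negative and 27 positive, where 52.1% of all tested genes were negative. The median log2 fold change was -1.06 beside -0.12 over all tested genes. Every library labelled Jun shRNA was below every control library for 30 of the 92, where 15.7% of all tested genes were, and above for 5, where 12.6% were. The count of 3 became 0 without control replicate 1 or 3, and 1 without control replicate 2 or replicate 1 of the libraries labelled Jun shRNA. It stayed at 3 without replicate 2 or 3 of the libraries labelled Jun shRNA, but the genes changed. They were Bag5, Cct7 and Hspb6 without replicate 2, and Cct3, Cct7 and Hspa5 without replicate 3.

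HSP90 co-chaperones stand closest to Stip1 in role, since several bind HSP90 through TPR domains as HOP does. Of 30 listed, 28 were tested, 21 were negative and 7 positive, and the median log2 fold change was -1.02. Past the threshold were 1 as lower and 0 as higher, beside 1.35% and 0.320% of all tested genes. Fkbp4, which encodes the immunophilin FKBP52, stood at 0.885, 1.30 and 1.90 CPM in the libraries labelled Jun shRNA, against 114, 111 and 82.5 CPM in controls. Its log2 fold change was -6.23 ± 1.07 (SE), lower at an edgeR adjusted p of 0.0297, a call that ended when any single library was left out, with adjusted p between 0.0636 and 0.143, or when libraries were scaled by their totals (adjusted p = 0.0506).

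The TRiC chaperonin folds actin and tubulin, and prefoldin delivers them to it. Of 15 listed genes 14 were tested, 11 were negative and 3 positive, and the median log2 fold change was -1.20. Past the threshold were 1 as lower and 0 as higher, beside 1.35% and 0.320% of all tested genes. In CPM, 8 were lower in every library labelled Jun shRNA than in every control, beside 15.7% of all tested genes. The same count was 6 of 17 for J-domain proteins, 6 of 28 for HSP90 co-chaperones and 4 of 11 for nucleotide exchange factors and adaptors. Cct7, a TRiC subunit, stood at 8.30, 2.03 and 16.8 CPM in the libraries labelled Jun shRNA, against 582, 676 and 848 CPM in controls. The log2 fold change of Cct7 was -6.28 ± 0.82 (SE), lower at an edgeR adjusted p of 0.0103, and the call ended without control replicate 1 (adjusted p = 0.0539) or 3 (adjusted p = 0.0650).

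In the endoplasmic reticulum, the paralogues Hspa5, Hsp90b1 and Hyou1 were all tested, with 2 negative, 1 positive and a median log2 fold change of -0.64. Past the threshold were 1 as lower and 0 as higher, beside 1.35% and 0.320% of all tested genes. Hspa5, which encodes the HSP70 family member BiP, stood at 49.6, 52.1 and 8.05 CPM in the libraries labelled Jun shRNA, against 948, 1187 and 518 CPM in controls. The edgeR adjusted p of Hspa5 was 0.0242, with a log2 fold change of -4.60 ± 0.76 (SE). When a library was left out, the call held only without replicate 3 of the libraries labelled Jun shRNA, with adjusted p between 0.0202 and 0.118 over the 6 fits, and limma-voom gave an adjusted p of 0.105.

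The other lists had no gene past the threshold. J-domain proteins had 17 of 18 tested and a median log2 fold change of -0.88. Dnajb2, a J-domain gene expressed in neurons, stood at 0.0681, 0.395 and 0.196 CPM in the libraries labelled Jun shRNA, against 37.7, 33.6 and 56.0 CPM in controls, a log2 fold change of -7.56 ± 1.62 (SE) at an edgeR adjusted p of 0.0553. Dnajb6, which encodes a suppressor of protein aggregation, had a log2 fold change of -2.33 (SE 0.61). Nucleotide exchange factors and HSP70 adaptors had 11 of 12 tested and a median of -1.66, with Bag2 at -5.06 (SE 2.13) and Sgtb at -1.75 (SE 0.78). Mitochondrial chaperones had 8 of 8 tested and a median of -1.31, with Hspd1, the HSP60 gene, at -3.21 (SE 0.89) and Hspa9, the mitochondrial HSP70 gene, at -2.74 (SE 0.71).

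HSP70 relatives had 5 of 8 tested and a median log2 fold change of 0.13, with Hspa13 at -2.73 (SE 1.28) and Hspa14 at -1.27 (SE 1.00). The list holds the stress-inducible genes Hspa1a and Hspa1b, named after their values were seen. Hspa1b stood at 21.3, 0 and 0 CPM in the libraries labelled Jun shRNA, against 2.17, 9.16 and 8.10 CPM in controls, and Hspa1a was below 1 CPM in all 6 libraries, though the pair are near-identical and reads may be divided between them. Small heat shock proteins had 3 of 10 tested and a median of -1.27, with Hspb6 at -3.53 (SE 1.02) and Cryab, the lens crystallin also found in glia, at -1.27 (SE 1.50). Heat shock transcription factors and their regulators had 3 of 7 tested and a median of 0.65. Hsbp1, which encodes a binding protein of HSF1, stood at 1109, 941 and 1039 CPM in the libraries labelled Jun shRNA, against 669, 523 and 775 CPM in controls, a log2 fold change of 0.65 ± 0.30 (SE). Hsf2 had a log2 fold change of 2.61 (SE 1.49).

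**Figure D4:**
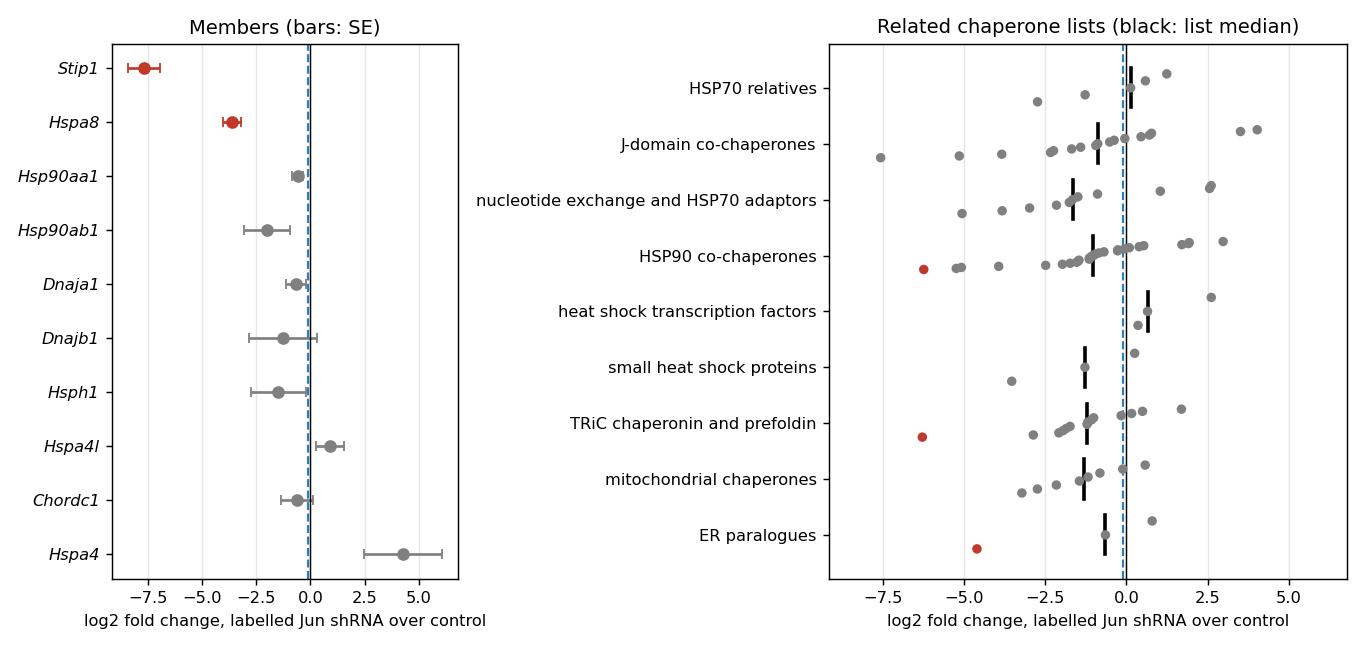
Log2 fold change of the libraries labelled Jun shRNA over controls for the 10 members (left, bars are SE) and the tested genes of 9 related lists (right, black bars are list medians), with red points past an adjusted p of 0.05 and a dashed line at the median of all tested genes, -0.12. Stip1 and Hspa8 lie far left of the other members, and 3 genes of the lists are red, all lower.

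The genes whose profile over the 6 libraries was nearest to that of Stip1, by the root mean square difference of centred log2 CPM, were Ddx39 at 0.197, Sebox at 0.223 and Zfp35 at 0.247. Ddx39, which encodes an RNA helicase, stood at 0.545, 0.846 and 0.916 CPM in the libraries labelled Jun shRNA, against 136, 235 and 129 CPM in controls. Nearest to Hspa8 were Agpat3 at 0.249, Ckb at 0.255 and Rnf138 at 0.283. Ckb, which encodes brain creatine kinase, stood at 73.5, 56.3 and 86.5 CPM in the libraries labelled Jun shRNA, against 774, 1205 and 587 CPM in controls. The search looked for profiles with the same fall, so the difference of these genes between groups was fixed by it and nothing is read from that difference.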

How the data were processed

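Estimated counts per gene and per transcript were deposited by the authors, and the submitters' processing notes name the tools edgeR 3.28.1, Trimmomatic 0.39 and kallisto 0.44.0. No genome build is named in the sources used here; deposited gene coordinates and GENCODE vM21 annotation are those of GRCm38. The deposited estimated counts were rounded. Only 6.62% of the gene values compared lay within 1% of their transcript sum, and the 2 kinds of table are on different scales. The third table, normalised values deposited by the authors and treated as a signal, summed to 1250541 to 2385208 per library and served in alternatives only.

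Low counts were removed by filterByExpr, TMM factors set library sizes, and the test was that of edgeR 4.0.16 (R 4.3.3; quasi-likelihood, group only, two-sided, Benjamini-Hochberg over all tested genes or transcripts, threshold 0.05). The SE of a log2 fold change is its size over the root of the F statistic. Alternatives used limma 3.58.1 and DESeq2 1.42.0. Scripts were tested on simulated data. A count of 0 was limited by 3 counts; intervals and floors cover counting error only.

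Members, lists and alternatives were chosen with earlier results of these data known. Named were all members, Jun, list genes past the threshold or otherwise the 2 with the smallest p, 3 genes nearest in profile to Stip1 and to Hspa8, and transcripts with at least 5% of their gene. Single marker genes of cell types were named outside this rule.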

Additional observations from a re-analysis of the deposited data

How the results depend on the processing

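Stip1 and Hspa8 were past the threshold as lower in all 17 alternatives, with log2 fold changes of -7.85 to -6.98 and -3.96 to -3.15 and adjusted p up to 0.0277 and 0.0426, and the other 8 members in 0 of 17. Their fall chose the set and the alternatives refit the same 6 libraries, so this describes the processing and is no independent support. Each of the 10 members kept its sign in all 17. The number of genes called, 214, became 1999 with DESeq2, 442 with limma-voom, 615 and 553 with limma-trend after adding 0.5 or 2 to the deposited signal, 737 with no filter, and 36 to 110 without single libraries. Pathway genes called lower, 3, became 10 with DESeq2, 10 with no filter, 9 and 9 with limma-trend, 5 with a filter of 50 counts, and 0 to 3 without single libraries, as given with the lists. Pathway genes called higher, 0, became 1 with DESeq2, 1 with no filter, and 0 to 1 without single libraries. Transcripts called, 137, became 64 with library totals and 22 to 101 without single libraries. The replicate block gave 97 genes and 82 transcripts, with Fkbp4 at an adjusted p of 0.111. Same-numbered libraries correlated at 0.0004, 0.0080 and -0.0151, so no effect shared by number was seen. With 3 libraries a group, these correlations cannot exclude that the samples were paired. The causes of these changes in the number of calls were not tested. Other scalings shifted the median gene by 0.15 (median of ratios), 0.39 (upper quartile) and 0.49 (library totals), with 38, 55 and 68 genes called higher and 125, 89 and 79 lower, against 41 and 173. The pathway median moved with them, to -0.93, -0.66 and -0.52, against -1.06, and was negative under every alternative. The retained-intron difference of 5.26 percentage points stayed between 4.69 and 5.58 without single libraries. Depth limits Stip1 in the libraries labelled Jun shRNA, where 15 to 29 counts were measured.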
